A study of Mus musculus with 12 samples.

Results

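The cell cycle genes described here are 10 genes that mark or drive cell division, namely Mki67, Top2a, Ccnb1, Cdk1, Ccnd1, Ccnd2, Ccne1, Cdkn1a, Pcna and Cdc45. They were taken from a list of Ensembl gene IDs and not by a threshold on any signal, and all 10 were among the 22400 rows of the gene-level table. The study compared 3 cell populations sorted from E7.5 mouse embryos by FLK1, the VEGF receptor on the surface of mesodermal precursors of blood and vessels, and by VENUS, a fluorescent protein that reports the mesodermal forkhead gene Foxf1. All embryos, those of the VENUS-negative cells included, carried the foxf1::venus knock-in on a C57BL/6 background, and no population came from embryos without the reporter. The labels name the populations Flk-pos Foxf1-neg, Flk-pos Foxf1-pos and Flk-neg Foxf1-pos, and they are written here as FLK1-only, double-positive and FOXF1-only cells. Each was profiled on 2 Affymetrix mouse exon arrays, from 2 sorts of 50 cells, and the labels do not say which embryos went into a sort. The 12 deposited samples hold each of these 6 arrays both as gene rows and as exon-level probe sets, so n is 6 arrays.

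The array medians lay between 6.00 and 6.07 log2 units. The files do not pair gene IDs with names, so the signals of Foxf1 and Kdr (the gene for FLK1) and of cell type markers were not used to check the labels of the populations. The row ENSMUSG00000042812 bears on this if it is Foxf1, which the files do not settle. Its log2 signal was 4.57 ± 0.20 (SD, n = 2) in FLK1-only, 4.58 ± 0.32 in double-positive and 8.21 ± 0.43 in FOXF1-only cells, and if it is Foxf1 the double-positive signal goes against that label. In pools of sorted cells, fewer cells in a phase of the cycle and less RNA per cell cannot be told apart.

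A cell divides by passing from a growth phase (G1) through DNA synthesis (S phase) and a further gap (G2) into mitosis. Cyclins of the D and E types, with their kinases, carry cells from G1 into S phase, and cyclin B with Cdk1 carries them from G2 into mitosis. Cells of the mouse embryo divide fast at gastrulation, when the mesoderm forms, and genes of mitosis and replication are then broadly transcribed.

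None of the 10 genes passed the test in any of the 3 comparisons, by limma with Benjamini-Hochberg adjustment over all 22400 rows at an adjusted p under 0.05. In FOXF1-only cells 6 of the 10 had their highest mean (Ccnb1, Ccnd1, Ccnd2, Cdkn1a, Pcna and Cdc45) and the other 4 their lowest (Mki67, Top2a, Cdk1 and Ccne1). By the order of means, neither the mitosis genes nor the cyclins all went one way. The exceptions, Ccnb1 among the mitosis genes and Ccne1 among the cyclins, rested on small differences. The Ccnb1 row was dim, but so was that of Mki67, which had its lowest mean in FOXF1-only cells. For Ccnb1, both FOXF1-only arrays lay above all other arrays, by a narrow margin. The widest differences were 1.15 ± 0.26 log2 units (SE) for Ccnd1 and -1.07 ± 0.37 for Top2a, both between FOXF1-only and FLK1-only cells. In the same comparison, Ccnb1, Ccne1, Pcna and Cdc45 differed by 0.18 ± 0.21, -0.05 ± 0.22, 0.22 ± 0.27 and 0.06 ± 0.29 log2 units, each within its SE.

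**Figure D1:**
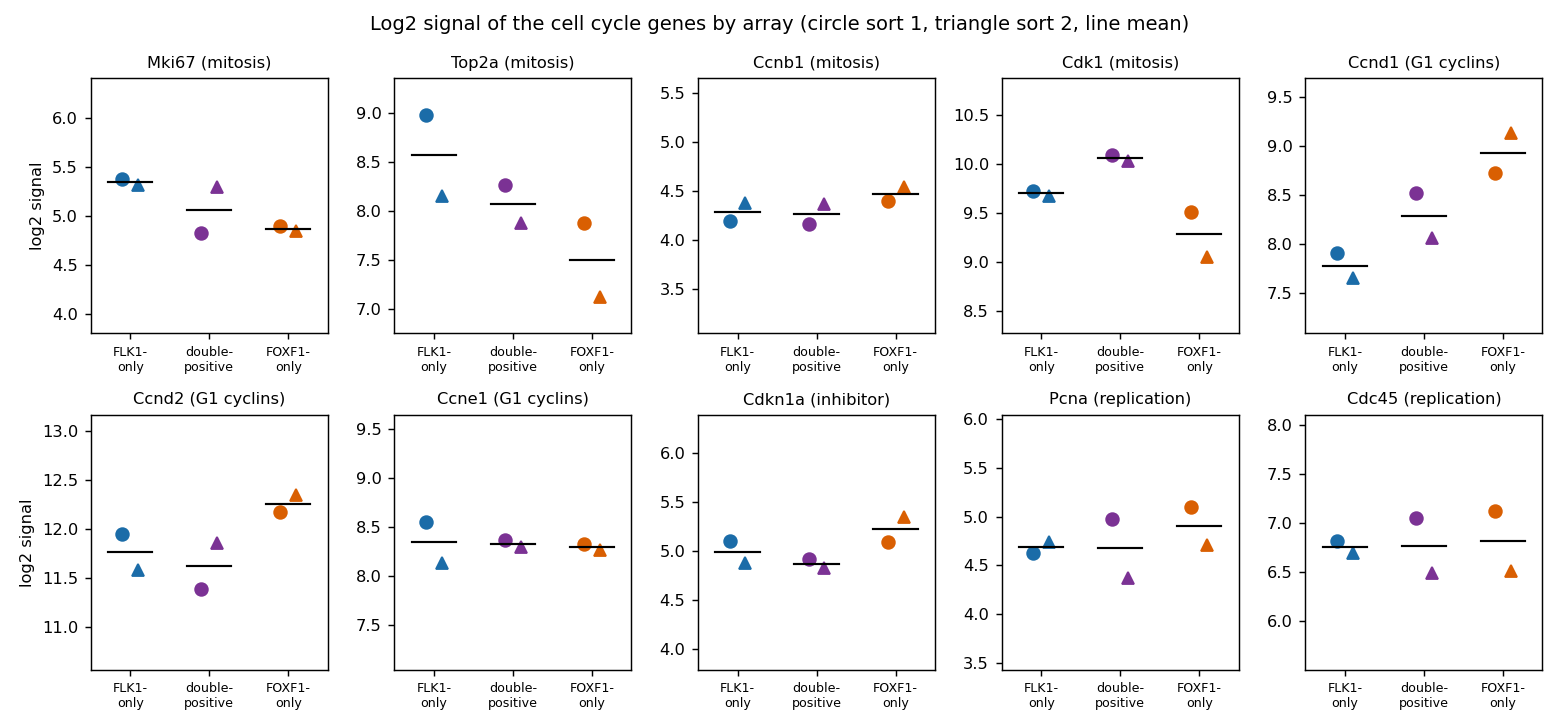
Log2 signal (vertical axes, all of the same span, each centred on its gene) of the 10 cell cycle genes on the 6 arrays, by population, with circles for sort 1, triangles for sort 2 and a line at the mean of both. Ccnd1 runs from 7.65 to 9.13 and Top2a from 7.13 to 8.99, with the FOXF1-only arrays at the upper end for Ccnd1 and at the lower end for Top2a.

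Among the genes of mitosis, Top2a (ENSMUSG00000020914) had the widest range. It encodes DNA topoisomerase II alpha, which untangles replicated chromosomes. Its log2 signals were 8.99 and 8.16 in FLK1-only cells, 8.27 and 7.88 in double-positive cells, and 7.88 and 7.13 in FOXF1-only cells, for sorts 1 and 2. The means stepped down in that order, and both FOXF1-only arrays lay below both FLK1-only arrays, while the double-positive arrays overlapped with each of the other populations. The difference between FOXF1-only and FLK1-only cells was -1.07 log2 units (95% interval -1.93 to -0.20), which is 2.10-fold lower, and it did not pass (limma adjusted p = 0.515). Within sort 1 it was -1.10 and within sort 2 it was -1.03, and within each population sort 1 lay above sort 2. Its size moved with single arrays, at -0.65 without FLK1-only sort 1, -0.69 without FOXF1-only sort 2 and -1.48 without FLK1-only sort 2.

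Cdk1 (ENSMUSG00000019942) encodes the kinase that drives entry into mitosis. The signals of sorts 1 and 2 were 9.72 and 9.67 log2 units in FLK1-only cells, 10.09 and 10.03 in double-positive cells, and 9.51 and 9.05 in FOXF1-only cells. No populations overlapped, and the double-positive cells were the highest. They exceeded the FOXF1-only cells by 0.78 ± 0.23 log2 units (SE; 95% interval 0.24 to 1.32; limma adjusted p = 0.543) and the FLK1-only cells by 0.36 ± 0.23 (adjusted p = 0.9999). The FLK1-only cells lay above the FOXF1-only cells, with a difference of -0.42 ± 0.23 for the latter minus the former (adjusted p = 0.814). That last difference was -0.19 without FOXF1-only sort 2 and -0.65 without FOXF1-only sort 1.

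Mki67 (ENSMUSG00000031004) encodes Ki-67, a protein that coats mitotic chromosomes and serves as a marker of dividing cells. It was measured at 5.38 and 5.32 log2 units in FLK1-only cells, 4.83 and 5.29 in double-positive cells, and 4.90 and 4.84 in FOXF1-only cells. The FLK1-only arrays were the highest of the 6, and the other populations overlapped. The FOXF1-only cells differed from them by -0.48 ± 0.23 log2 units (SE; limma adjusted p = 0.756). Ccnb1 (ENSMUSG00000041431), which encodes cyclin B1, the partner of Cdk1, did not follow this order. Its log2 signals were 4.20 and 4.38 in FLK1-only, 4.16 and 4.36 in double-positive and 4.40 and 4.54 in FOXF1-only cells, all within 0.378 log2 units. The FOXF1-only arrays were the higher ones by a narrow margin, and sort 2 lay above sort 1 in each population.

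The Mki67 and Ccnb1 rows were dim. Mki67 stood between the 15.3 and 29.3 percentiles of the rows of its array, and Ccnb1 between 4.33 and 9.53. No detection calls were used, and a signal this low cannot be called absent or present.

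Of the 4 genes with their lowest mean in FOXF1-only cells, the mitosis genes Mki67, Top2a and Cdk1 are shown with the 200 bases before their transcription start. Promoters of many genes of late cell cycle phases hold a short element known as the cell cycle genes homology region. The sequences are RefSeq's on GRCm38.p6, 5′ to 3′ on the minus strand, where all 3 genes lie, at chr7:135716380-135716579, chr11:99024190-99024389 and chr10:69352913-69353112. Capitals mark that element, TTTGAA, or its reverse complement TTCAAA.
Mki67: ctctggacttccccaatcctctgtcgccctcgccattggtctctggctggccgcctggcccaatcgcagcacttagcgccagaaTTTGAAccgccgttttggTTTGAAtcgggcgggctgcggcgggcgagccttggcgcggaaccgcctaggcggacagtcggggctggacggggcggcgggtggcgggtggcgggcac
Top2a: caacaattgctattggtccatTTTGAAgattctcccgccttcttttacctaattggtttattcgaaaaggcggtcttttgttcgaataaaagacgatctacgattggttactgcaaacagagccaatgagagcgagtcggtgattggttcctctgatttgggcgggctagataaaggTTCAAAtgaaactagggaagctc
Cdk1: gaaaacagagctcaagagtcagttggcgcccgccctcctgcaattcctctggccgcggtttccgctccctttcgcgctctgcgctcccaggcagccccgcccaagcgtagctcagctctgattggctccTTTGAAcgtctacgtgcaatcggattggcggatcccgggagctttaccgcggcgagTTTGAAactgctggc
Each of these stretches held the letters 2 times. With both strands searched over the 250 bases upstream, the letters were found in 4 of the 8 members that have a promoter in the table (Mki67, Top2a, Cdk1 and Cdc45), against 16.0% of all 32851 promoter windows. Ccnb1, Ccne1, Cdkn1a (in both of its windows) and Pcna had no match, and Ccnd1 and Ccnd2 have no entry. The match did not follow the order of means. Ccne1, without a match, also had its lowest mean in FOXF1-only cells, and Cdc45, with a match, had its highest mean there. A link between match and signal was not tested. Mki67, Top2a and Cdk1 also held the CCAAT box (CCAAT or ATTGG), at 3, 6 and 3 places, and it was found in 33.9% of all windows. In these 3 genes no match of the one overlapped a match of the other. A match is a run of letters and does not show a bound site.

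The D-type cyclins had their highest signals in FOXF1-only cells. Ccnd1 (ENSMUSG00000070348) encodes cyclin D1, which links growth signals to the start of the cycle. Its log2 signals were 7.91 and 7.65 in FLK1-only cells, 8.52 and 8.06 in double-positive cells, and 8.72 and 9.13 in FOXF1-only cells. The populations did not overlap in any pair, with the double-positive cells in the middle. The FOXF1-only cells exceeded the FLK1-only cells by 1.15 ± 0.26 log2 units (SE; 95% interval 0.53 to 1.76), or 2.21-fold, which did not pass (limma adjusted p = 0.198). The double-positive cells differed by 0.51 ± 0.26 from the FLK1-only cells (adjusted p = 0.9999) and by -0.64 ± 0.26 from the FOXF1-only cells (adjusted p = 0.825). With 1 array left out, the difference between FOXF1-only and FLK1-only cells ran from 0.94 (without FOXF1-only sort 2) to 1.35. The double-positive cells differed from the FLK1-only cells by 0.28 without double-positive sort 1, and from the FOXF1-only cells by -0.41 without double-positive sort 2.

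An exon-level probe set gave a smaller Ccnd1 difference than the gene row. On 5 arrays the Ccnd1 row equalled 1 exon-level probe set to 6 decimals. On FOXF1-only sort 2 that probe set read 8.17, where the gene row read 9.13. With the probe set in place of the gene row, the difference between FOXF1-only and FLK1-only cells was 0.66 log2 units (limma adjusted p = 0.674), and these 2 populations still did not overlap. The double-positive and FOXF1-only cells then overlapped and differed by -0.15 log2 units. This probe set was looked for after the data had been seen.

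Ccnd2 (ENSMUSG00000000184) encodes cyclin D2, a close relative of cyclin D1. The row read 11.95 and 11.58 log2 units in FLK1-only cells, 11.38 and 11.86 in double-positive cells, and 12.17 and 12.35 in FOXF1-only cells. The FOXF1-only arrays were the highest, and the FLK1-positive populations overlapped. The double-positive cells differed from the FOXF1-only cells by -0.64 ± 0.25 log2 units (SE; 95% interval -1.24 to -0.04; limma adjusted p = 0.814). The FOXF1-only cells exceeded the FLK1-only cells by 0.49 ± 0.25 (adjusted p = 0.782). Without double-positive sort 1 the first difference was -0.40, and without FLK1-only sort 2 the second was 0.31. The row stood at or above the 98.3 percentile of its array.

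Ccne1 (ENSMUSG00000002068) encodes cyclin E1, which acts at the entry into S phase. On the log2 scale it stood at 8.55 and 8.13 in FLK1-only, 8.37 and 8.29 in double-positive and 8.33 and 8.26 in FOXF1-only cells. Both outer values came from the same population, so all populations overlapped. The 95% intervals of the 3 differences lay between -0.57 and 0.56 log2 units.

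Cdkn1a (ENSMUSG00000023067) encodes p21, an inhibitor of cyclin-dependent kinases that acts downstream of p53. The log2 signals of p21 mRNA were 5.10 and 4.88 in FLK1-only, 4.91 and 4.83 in double-positive and 5.09 and 5.35 in FOXF1-only cells. The double-positive arrays lay below both FOXF1-only arrays, with a difference of -0.35 ± 0.22 log2 units (SE; limma adjusted p = 0.981), and the other pairs overlapped. Without FOXF1-only sort 2 that difference was -0.22. The row was dim, between the 14.4 and 29.6 percentiles of its array.

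The replication genes showed no order of the populations. Pcna (ENSMUSG00000027342) encodes the sliding clamp of DNA polymerase, and its log2 signals were 4.63 and 4.74 in FLK1-only, 4.98 and 4.38 in double-positive and 5.09 and 4.71 in FOXF1-only cells. Cdc45 (ENSMUSG00000000028), part of the replicative helicase, stood at 6.82 and 6.69, at 7.05 and 6.48, and at 7.12 and 6.50 log2 units in the same order. All populations overlapped for both genes, and the sorts of the double-positive cells differed by 0.602 for Pcna and 0.563 for Cdc45, more than any pair of population means. The 95% intervals of the population differences reached from -0.86 to 0.85 for Pcna and from -0.74 to 0.75 for Cdc45. Differences inside those bounds are not excluded by these arrays. The bounds are those of the gene rows, are not adjusted for the number of genes and are not a limit of detection. An exon-level probe set that equalled the Cdc45 row on 2 arrays lay outside them, at 0.78 for double-positive minus FLK1-only cells. Another such probe set gave -0.23. Pcna was also dim, between the 6.07 and 21.0 percentiles of its array.

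**Figure D2:**
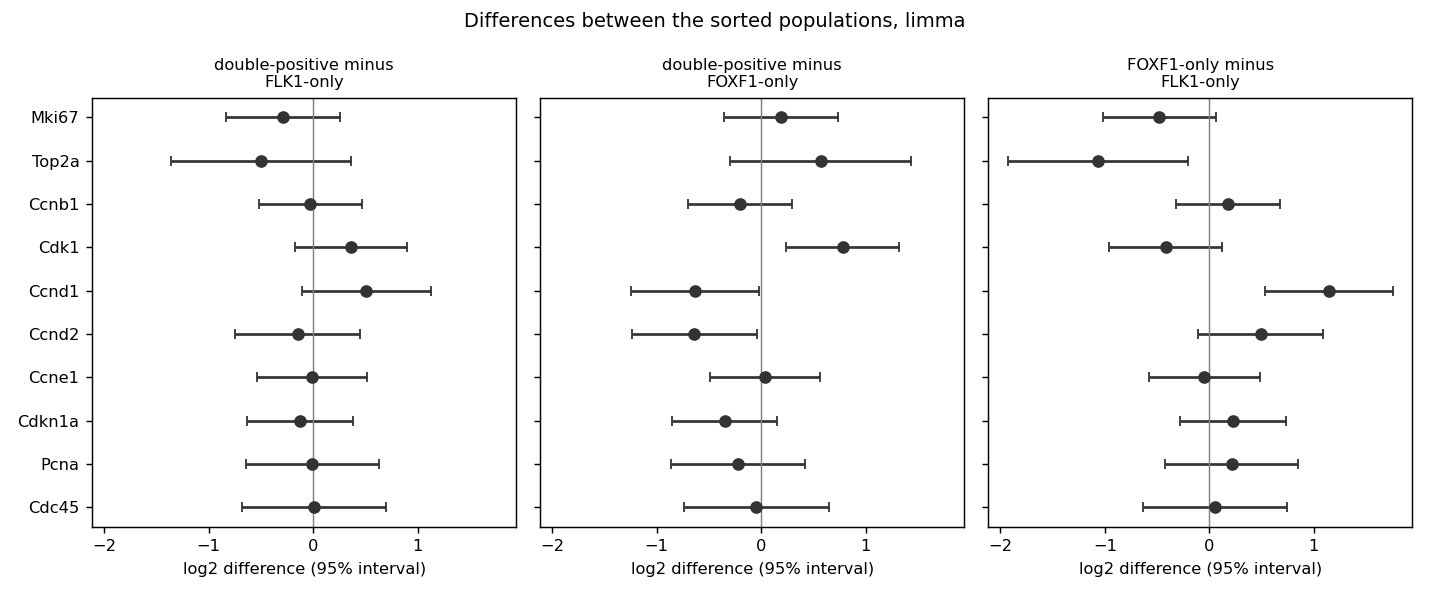
Log2 difference between populations (horizontal axes) for each of the 10 cell cycle genes in the 3 comparisons, with points for limma estimates and bars for 95% intervals not adjusted for the number of genes. The bars leave out 0 for Cdk1, Ccnd1 and Ccnd2 in the middle panel and for Top2a and Ccnd1 in the right panel, and for no gene in the left panel.

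Setting double-positive against FLK1-only cells asks what goes with the Foxf1 reporter among FLK1-positive cells. Of the 10 genes, 0 passed the adjusted threshold in limma, as for 0% of all rows, and 0 had an unadjusted p under 0.05, against 4.67% of all rows. The array pairs did not overlap for 3 of the 10 (Mki67 lower, Cdk1 and Ccnd1 higher in double-positive cells), against 32% of all rows. The median difference was -0.02 log2 units over the 10 genes and -0.002 over all rows, and the median absolute difference was 0.134 against 0.180.

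Setting double-positive against FOXF1-only cells asks what goes with FLK1 among reporter-positive cells. Here 0 of the 10 genes passed in limma, against 0.286% of all rows, and 3 had an unadjusted p under 0.05 (Cdk1, Ccnd1 and Ccnd2, at 0.0110, 0.0437 and 0.0392), against 5.86% of all rows. Without FOXF1-only sort 2, 0 had such a p. The array pairs did not overlap for 5 of the 10 (Cdk1 higher, and Ccnb1, Ccnd1, Ccnd2 and Cdkn1a lower in double-positive cells), against 32.4% of all rows. The median difference was -0.13 log2 units over the 10 genes and -0.01 over all rows, and the median absolute difference was 0.287 against 0.180.

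The comparison of FOXF1-only with FLK1-only cells takes the populations that were sorted for 1 marker and against the other. Again 0 of the 10 genes passed in limma, against 0.545% of all rows, and 2 had an unadjusted p under 0.05 (Ccnd1 at 0.00291 and Top2a at 0.0221), against 7.28% of all rows. That count was 1 without FLK1-only sort 1 and also 1 without FOXF1-only sort 2. The array pairs did not overlap for 6 of the 10 (Mki67, Top2a and Cdk1 lower, and Ccnb1, Ccnd1 and Ccnd2 higher in FOXF1-only cells), against 35.1% of all rows. The median absolute difference was 0.322 log2 units over the 10 genes and 0.193 over all rows. The absolute differences of Ccnd1 and Top2a exceeded those of 97.7% and 97.3% of all rows. Any 2 of the comparisons share the arrays of a population, so their counts are not independent.

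Sort 1 lay above sort 2 in all 3 populations for 4 of the 10 genes (Top2a, Cdk1, Ccne1 and Cdc45), against 16.7% of all rows, and below it for 1 (Ccnb1), against 14.1% of all rows. For Top2a the sorts differed by 0.830 log2 units in FLK1-only, 0.394 in double-positive and 0.757 in FOXF1-only cells. For Cdk1 they differed by 0.0516 and 0.0587 in the FLK1-positive populations and by 0.459 in FOXF1-only cells. Whether a sort number marks a shared day or litter is not stated in the labels. The part of the sort in the signals was not itself tested, and population differences with sort number as a block are given further below.

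**Figure D3:**
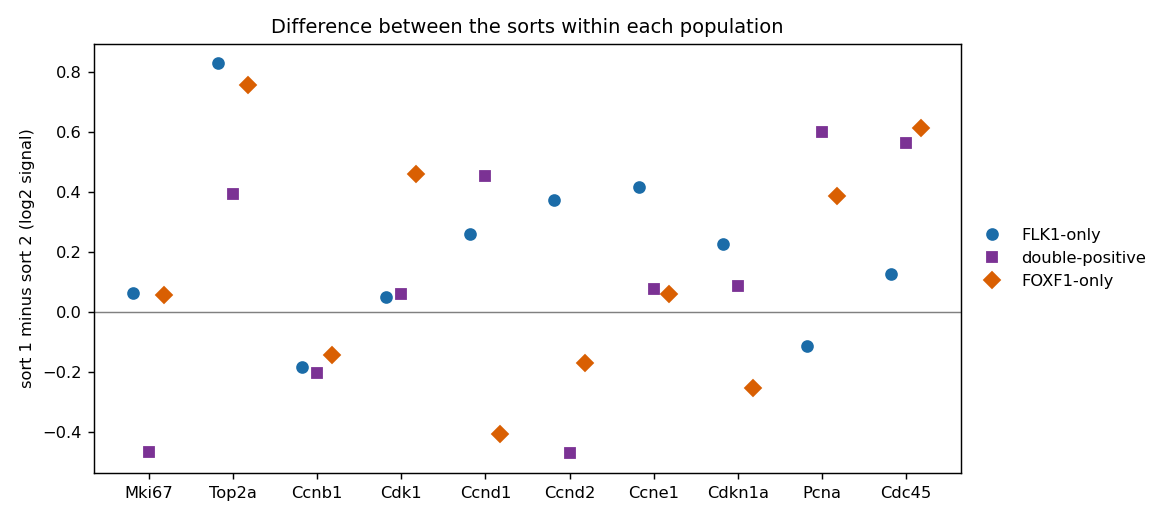
Sort 1 minus sort 2 in log2 signal (vertical axis) for each of the 10 cell cycle genes, with 1 point per population. All 3 points lie above 0 for Top2a, Cdk1, Ccne1 and Cdc45 and below 0 for Ccnb1.

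The exon-level table gave a second view of some rows. The rows of Ccnb1, Cdk1 and Ccnd2 each matched 1 probe set, on all 6 arrays. The Mki67 row equalled 1 probe set on 3 arrays, and for that probe set the difference between FOXF1-only and FLK1-only cells was -0.26 log2 units, against -0.48 for the gene row. The Cdc45 row equalled 1 probe set on 2 arrays and another on 2 arrays. On double-positive sort 1 these read 9.28 and 6.52, on either side of the gene row at 7.05. On double-positive sort 2 they read 5.54 and 6.44. The double-positive cells differed from the FLK1-only cells by 0.78 log2 units in the first probe set and by -0.23 in the second, against 0.01 for the gene row. Outside the 10 genes, the rows whose profile over the 6 arrays was most like the mean centred signal of Mki67, Top2a, Ccnb1 and Cdk1 were ENSMUSG00000028420 and ENSMUSG00000042099, with Pearson r of 0.994 and 0.992. That mean is not a pattern all 4 genes share, since Ccnb1 ran against the others over the 6 arrays, with r of -0.863 to Top2a, -0.779 to Cdk1 and -0.219 to Mki67. This likeness is a description over 6 arrays that share populations and sorts, and 51 of 22390 rows had r above 0.95.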

How the data were processed

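The authors deposited log2 signals of 6 Affymetrix mouse exon arrays, as gene rows and as exon-level probe sets. Per the submitters' processing notes these came from Affymetrix Power Tools with RMA, a robust multi-array average. The versions, the genome build and the rule that joined probe sets into genes are not given in the sources used here. That they are log2 was inferred from their range of 3.11 to 14.17 in the gene table. RMA tends to shrink wide differences. The number of arrays limits the precision.

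In R 4.3.3, limma 3.58.1 was run on all 22400 gene rows and 6 arrays (lmFit, then eBayes), with no factor besides population. Residual degrees of freedom were 3 and prior ones 4.27. The 3 contrasts were two-sided, and every adjusted p-value is limma's after Benjamini-Hochberg adjustment within a contrast over all rows. The fit was run on simulated data with independent noise and no effect of sort, as a check of the code. The power of the fit for differences as small as most of those seen here was not measured. The design text calls the sorts biological replicates, and p-values measure only the spread between them.

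The 10 members, which were all to be named, and the lists were chosen with earlier results of these data known. Planned lists of other mitosis, replication, G1/S and CDK inhibitor genes and of cell type markers were not used, because 0 of the 22400 IDs matched a name in the reference. Member names came with the list of IDs. Motifs were searched in RefSeq promoters of GRCm38.p6. Alternatives were scaling (a second quantile normalization, or centring on medians), dropping the dimmer 50% of rows, a robust prior with intensity trend, array weights, a fit of just 2 populations, a block for the sort number, and dropping each array. Replacing gene rows of Mki67 and Ccnd1 by a probe set was added after seeing the data. Python 3.11.15 with matplotlib 3.10.9 drew the figures.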

Additional observations from a re-analysis of the deposited data

How the results depend on the processing

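No member passed in any comparison under any of the 13 planned settings or with the probe sets that were added later, by limma, and the lowest adjusted p of any member under a planned setting was 0.163. That value came without the dimmer 50% of rows, a setting that drops 4 members (Mki67, Ccnb1, Cdkn1a and Pcna). Leaving out 1 array at a time, with a lone array assumed to vary like the others, gave 0 members at an unadjusted p under 0.05 between the FLK1-positive populations, 0 to 2 in double-positive against FOXF1-only cells and 1 to 3 in FOXF1-only against FLK1-only cells, and these fits have fewer arrays. With sort number entered as a replicate block, 0, 3 and 2 members had such a p, as without it, but not the same genes: in double-positive against FOXF1-only cells Ccnd1 moved from 0.0437 to 0.0533 and Top2a from 0.164 to 0.0392. Over all rows 5.68%, 6.95% and 8.41% had such a p with the block. The adjusted p of Top2a in FOXF1-only against FLK1-only cells was 0.164 in place of 0.515. The block moved the calls over all rows from 0, 64 and 122 to 0, 56 and 107. Across genes, sort 1 minus sort 2 correlated at 0.137, 0.0975 and 0.0591 for the pairs of populations. Only the first exceeded 0.1. The labels do not say that a sort number marks a shared litter, batch or day, and the sorts were not taken as paired.

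Of 378 recomputed differences of members, 21 changed sign, 18 of them with an array left out. No main difference among those that changed sign exceeded 0.223 log2 units in size. Many of the 378 repeated the main estimate, so 21 of 378 does not measure how stable the signs are. Dropping dim rows, the robust prior with trend, array weights, the block and fitting only the compared populations left the estimates as they were. So did leaving out an array of a population outside the comparison. Between the FLK1-positive populations, leaving out arrays gave -0.128 to 0.0754 for Ccnb1, -0.382 to 0.0898 for Ccnd2, -0.22 to 0.20 for Ccne1, -0.31 to 0.29 for Pcna and -0.27 to 0.29 for Cdc45. There Ccne1 stood at 0.0373 after quantile normalization again and at 0.00571 after median centring, and Pcna at 0.0102 after median centring. In double-positive against FOXF1-only cells the ranges were -0.0428 to 0.424 for Mki67, -0.00344 to 0.0717 for Ccne1, -0.524 to 0.0784 for Pcna and -0.35 to 0.26 for Cdc45, and the Mki67 probe set gave -0.0730. In FOXF1-only against FLK1-only cells they were -0.26 to 0.16 for Ccne1 and -0.25 to 0.36 for Cdc45. The cause was not tested. Means of named exon-level probe sets were not run, since no table used here names them.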
